A study of Homo sapiens with 6 samples.

Results

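Expression was examined for 10 genes used as stem, progenitor and blast markers in acute myeloid leukaemia: IGLL1, CD34, KIT, PROM1, SPINK2, CD38, CD33, IL3RA, CD99 and CD47. They are 10 of the 20036 genes in the deposited table, found by matching Ensembl identifiers to gene symbols, and each symbol matched 1 gene. RNA-seq was done on MV411, a human leukaemia cell line with monocytic features that carries a rearranged KMT2A gene and a duplication within FLT3, and whose genotype is labelled WT. The cells received corilagin, a plant ellagitannin, for 48 h (3 libraries), or DMSO, the solvent control, for 48 h (3 libraries). No dose is given in the sources used here, all libraries come from 1 cell line, and the labels do not say whether replicates were separate cultures, so the spread between them may be technical.

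The genes were selected on their roles as markers and on their corilagin and DMSO values in this table, which were in view when they were picked. Their differences between the groups are therefore given as a description, without a p-value, and p-values are given only for other genes. The lists of other genes were also chosen with earlier results of these data known, which limits their p-values. Values are the deposited FPKM, which divide a gene's fragments by its length and by the library's total. Library totals recovered from the FPKM steps lay between 17776956 and 21640689 fragments. DMSO replicate 3 stood apart from its group: over genes, its fragments differed from those of DMSO replicates 1 and 2 with a chi-square of 96.1 and 76.5 per gene, but from those of the corilagin libraries with 25.4 to 29.1. The corilagin libraries differed among themselves by 2.51 to 3.53 per gene. Results are also given without DMSO replicate 3 where it matters.

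In normal blood formation, CD34, KIT and PROM1 mark stem and early progenitor cells, and CD38 appears as progenitors commit. IGLL1 encodes the lambda-like part of the surrogate light chain, which pairs with VPREB1 in the receptor of precursor B cells. Leukaemic blasts often keep IL3RA, CD33, CD99 and CD47 on their surface, and these proteins are studied as targets of antibody therapy. Antibodies to CD47 block its binding to SIRPA, the receptor through which it restrains phagocytes.

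Corilagin-treated cells carried much less mRNA of IGLL1 and CD38, more of IL3RA and CD47, and similar amounts of CD33 and CD99. IGLL1 was 13.5-fold lower and CD38 8.46-fold lower in mean FPKM. IL3RA was 1.31-fold and CD47 1.37-fold higher, and the CD47 log2 difference went to -0.04 once a trend with GC content between libraries was removed. CD34 and KIT had at most 20 fragments in any library, and PROM1 and SPINK2 had none, so the markers that define stem and progenitor cells were at or near 0 in this line in both groups.

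The start regions of IGLL1 and CD38 are shown because these 2 genes had the lowest corilagin to DMSO ratios of the set. Each window runs from 250 bases before to 50 bases after the annotated start and was taken from RefSeq (GRCh38.p14), 5′ to 3′ on the gene's strand. Capitals mark matches, on either strand, to 7 motifs that were chosen with the IGLL1 window in view, and no matches overlapped.
IGLL1 (chr22:23580241-23580540, minus strand): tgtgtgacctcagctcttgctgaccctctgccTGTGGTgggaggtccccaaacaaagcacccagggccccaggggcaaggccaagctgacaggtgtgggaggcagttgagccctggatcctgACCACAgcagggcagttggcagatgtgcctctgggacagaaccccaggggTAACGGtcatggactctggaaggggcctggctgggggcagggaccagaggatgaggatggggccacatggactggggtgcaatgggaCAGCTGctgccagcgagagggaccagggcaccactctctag
CD38 (chr4:15778078-15778377, plus strand): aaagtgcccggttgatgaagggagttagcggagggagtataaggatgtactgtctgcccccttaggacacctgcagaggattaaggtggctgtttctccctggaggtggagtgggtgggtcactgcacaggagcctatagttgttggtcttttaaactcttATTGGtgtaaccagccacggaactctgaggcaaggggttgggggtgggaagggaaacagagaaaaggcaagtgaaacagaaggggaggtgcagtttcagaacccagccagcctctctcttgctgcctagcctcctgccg

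The IGLL1 window held the RUNX letters TGTGGT at 2 places (13.1% of 34961 windows hold at least 1), the MYB letters TAACNG once (20.7% of windows) and the E-protein letters CAGCTG once (18.0% of windows), the last of these beginning at base 10 of the transcript. It held no CACGTG (the MYC and MAX E-box, 7.27% of windows), GAGGAA (the PU.1 core, 27.9%), GGGCGG (the GC box, 45.0%) or CCAAT (34.6%). The CD38 window held 1 match to CCAAT and none to the other 6 motifs. Both windows were poor in CG dinucleotides, with 2 in IGLL1 and 4 in CD38 against a median of 14 over all windows. Such matches describe letters in these windows and do not show binding.

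IGLL1 (ENSG00000128322) lies on chromosome 22 at 23573125 to 23580308 (GRCh38, GENCODE 29), minus strand. Its level was 0.206, 0.342 and 0.365 FPKM in corilagin replicates 1, 2 and 3, and 4.93, 4.27 and 3.13 FPKM in DMSO replicates 1, 2 and 3. Every corilagin library was below every DMSO library, by a wide margin, while DMSO replicate 3 was the lowest of its own group. The means were 0.304 ± 0.0860 FPKM after corilagin and 4.11 ± 0.909 FPKM in DMSO (SD, n = 3 each), resting on 16 and 214 fragments in all. In bulk RNA, fewer cells with the transcript and less transcript per cell cannot be told apart.

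**Figure D1:**
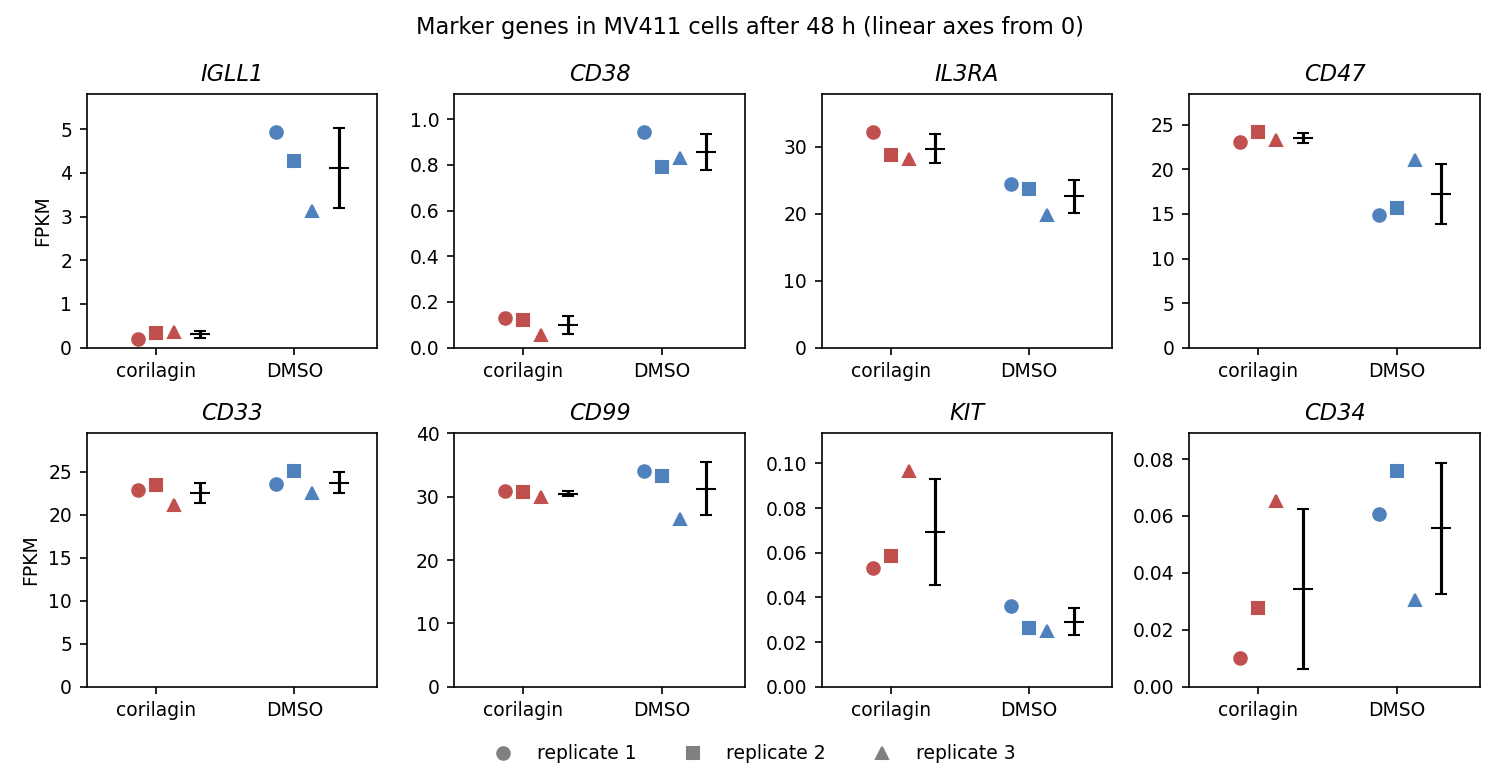
FPKM of 8 marker genes in each library (symbols, by replicate number) with the group mean and SD (black), corilagin left of DMSO, on linear axes from 0. IGLL1 and CD38 lie far below DMSO in all 3 corilagin libraries, CD33 and CD99 overlap, and in CD47 DMSO replicate 3 (21.0 FPKM) lies apart from DMSO replicates 1 and 2; PROM1 and SPINK2, at 0 in every library, are not drawn.

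On the log2(FPKM + 1) scale of the fit across genes, IGLL1 differed by -1.96 (SE 0.138), and this was the second most negative value among 9868 tested genes. That scale understates a change so close to 1 FPKM. On fragments, limma-voom gave a log2 difference of -3.65, and among the 10792 genes with at least 100 DMSO fragments IGLL1 had the lowest corilagin to DMSO ratio of mean FPKM, 0.0740. That ranking admitted genes on DMSO fragments alone, and IGLL1, with 16 fragments after corilagin, entered it through DMSO. Its rank is a description, as the gene was picked with these values in view. The ratio of IGLL1 ranged between 0.0661 and 0.0859 when any 1 library was left out. IGLL1 entered the fit, which required a mean of 1 FPKM over all libraries, only through its level in DMSO.

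IGLL1 shares part of its sequence with other genes, and reads from that part could be shared or lost. Of its 947 distinct stretches of 50 bases, 78 (8.24%) also occur in transcripts of other genes, 60 of them in the pseudogene IGLL3P, 60 in the transcript AL022324.4 and 18 in IGLL5, a coding paralog. IGLL5 had 0.345, 0.267 and 0.163 FPKM in the corilagin libraries, against 0.456, 0.633 and 0.462 FPKM in the DMSO libraries, from 21 and 40 fragments. The 2 groups did not overlap for IGLL5 either, at a level too low for the fit. VPREB1, the partner of IGLL1 in the surrogate light chain, had 1 fragment in corilagin replicate 2 and was listed at 0 elsewhere.

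Other genes of precursor B cells were mostly too low to test. Of 18 such genes, 3 (RAG2, MS4A1 and MME) were at 0 in every library and 4 reached 1 FPKM, TCF3 and IKZF1 among them. None of the 4 passed limma's test at an adjusted p under 0.05, although TCF3 and IKZF1 had an unadjusted p under 0.05 in the lower direction. Of the 4, limma-voom called 1 (TCF3) lower, and the replicate block and median-of-ratios scaling each called 1 lower. Over all 9868 tested genes, 1330 were lower with the replicate block and 1518 with median-of-ratios scaling. TCF3, an E protein, had 43.7 ± 0.461 FPKM after corilagin and 57.6 ± 8.65 FPKM in DMSO (limma adjusted p = 0.0523). The list's summed level, 79.8 to 81.4 FPKM in the corilagin libraries and 87.9 to 105 FPKM in the DMSO libraries, is mostly TCF3 and IKZF1. EBF1, a transcription factor of early B cells, went the other way, with 1.175, 1.20 and 1.23 FPKM after corilagin and 0.514, 0.787 and 0.782 FPKM in DMSO, and limma called it higher where no filter on low values was used (adjusted p = 0.0318). RAG1, PAX5 and BLNK, all below 0.4 FPKM in every library, were also higher without overlap. Of the 15921 genes above 0 in any library, 20.2% were higher without overlap and 16.7% lower. TCF3 and IKZF1 were both called lower with the GC trend removed. The log2 difference of TCF3 then shrank to -0.16, against -0.38 as deposited. Without DMSO replicate 3, 2 of the 4 genes were lower. Over all tested genes, 2347 of 9859 were lower with the GC trend removed and 3597 of 9868 without DMSO replicate 3.

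CD38 (ENSG00000004468), an ectoenzyme that consumes NAD and makes cyclic ADP-ribose, lies on chromosome 4 at 15778275 to 15853230, plus strand. It had 0.128, 0.119 and 0.0558 FPKM in corilagin replicates 1, 2 and 3, against 0.942, 0.792 and 0.829 FPKM in the DMSO replicates. All corilagin values were below all DMSO values, and DMSO replicate 3 lay between the other 2 DMSO libraries. The means were 0.101 ± 0.0394 FPKM after corilagin and 0.854 ± 0.0782 FPKM in DMSO, from 42 and 337 fragments.

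The corilagin to DMSO ratio of CD38, 0.118, was the second lowest after IGLL1 among the 10792 genes with at least 100 DMSO fragments. With any 1 library left out the ratio stayed between 0.103 and 0.145. CD38, with 42 fragments after corilagin, also entered this ranking through DMSO, and its rank is likewise a description. CD38 nevertheless fell below the filter of a mean of 1 FPKM and so was not among the 9868 tested genes. Its neighbour and paralog BST1, a related ectoenzyme, had 2.08, 2.34 and 1.89 FPKM in the corilagin libraries and 2.27, 2.31 and 2.06 FPKM in the DMSO libraries, and the groups overlapped (limma log2 difference -0.05, adjusted p = 0.634, and 0.03 with equal sums). Whether CD38 and BST1 responded differently was not tested.

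**Figure D2:**
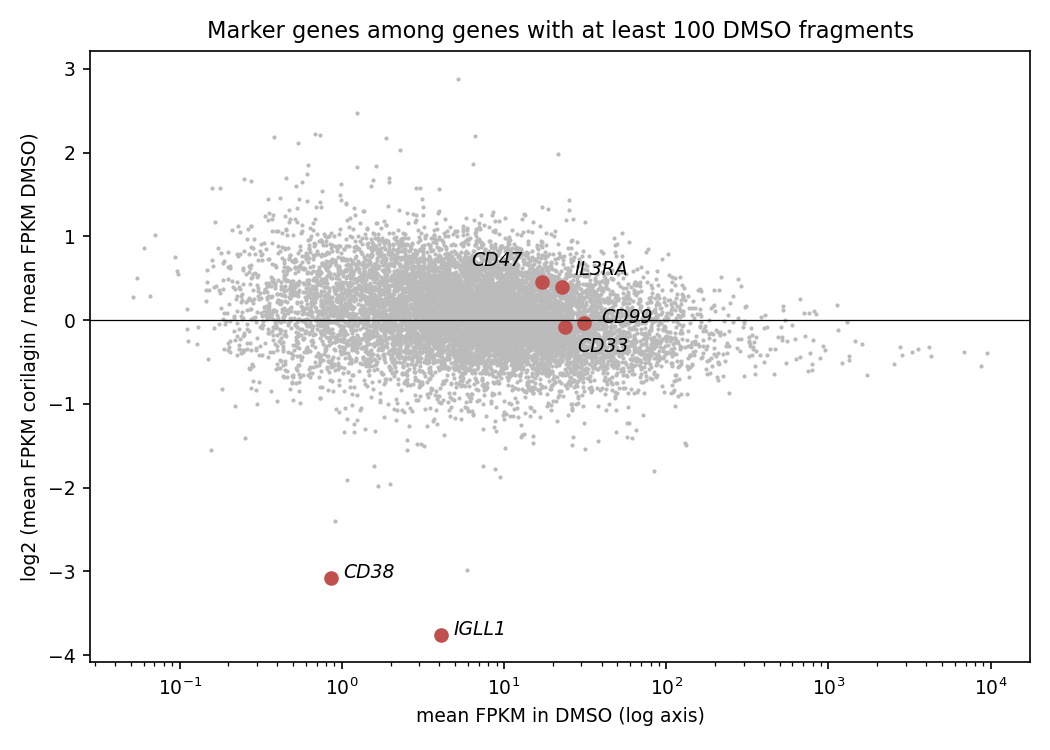
Log2 ratio of mean FPKM (corilagin over DMSO) against mean FPKM in DMSO (log axis) for the genes with at least 100 DMSO fragments (grey), with 6 marker genes in red. IGLL1 and CD38 have the lowest 2 ratios of all genes drawn, while CD33, CD99, IL3RA and CD47 lie within the main cloud. Genes were admitted on DMSO fragments alone, and the marker genes were picked with these values in view.

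IL3RA (ENSG00000185291), the alpha chain of the interleukin 3 receptor known as CD123, is annotated in the pseudoautosomal region, at 1336616 to 1382689 on chromosome X with an identical copy on Y, so reads may be shared or lost. It had 32.2, 28.8 and 28.2 FPKM in corilagin replicates 1, 2 and 3, against 24.4, 23.7 and 19.8 FPKM in the DMSO replicates. The lowest corilagin library was above the highest DMSO library. The fitted log2 difference was 0.38 (SE 0.104), 0.50 with the GC trend removed and 0.50 with libraries rescaled to equal sums. Its ratio of mean FPKM, 1.31, lay between 1.24 and 1.37 when any 1 library was left out.

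The other chains of this receptor family were compared beside it. CSF2RA, the alpha chain of the receptor for granulocyte-macrophage colony-stimulating factor and a neighbour of IL3RA in the same region, had 12.1, 11.8 and 11.0 FPKM after corilagin and 8.80, 8.22 and 7.81 FPKM in DMSO (limma log2 difference 0.45, SE 0.0842, adjusted p = 0.0141). It rose without overlap between groups, although the call was lost without corilagin replicate 1, 2 or 3 or DMSO replicate 2. CSF2RB, the signalling chain that both alpha chains share, had 20.4 ± 0.260 FPKM and 18.3 ± 0.210 FPKM. CSF2RB did not pass (limma log2 difference 0.15, adjusted p = 0.135), and passed with the GC trend removed (0.32, adjusted p = 0.0135), with equal sums (adjusted p = 0.0364) and without DMSO replicate 3 (adjusted p = 0.00568).

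CD47 (ENSG00000196776), the ligand that restrains phagocytes, lies on chromosome 3 at 108043094 to 108091862, minus strand. It had 23.1, 24.2 and 23.3 FPKM in corilagin replicates 1, 2 and 3, against 14.9, 15.7 and 21.0 FPKM in DMSO replicates 1, 2 and 3. The groups did not overlap, but DMSO replicate 3 lay closer to the corilagin libraries than to the other DMSO libraries. The fitted log2 difference was 0.45 (SE 0.131). CD47 transcripts have a GC content of 38.3%, and genes of that GC content lay on average at 0.21, 0.24 and 0.27 log2 units from their own mean in the corilagin libraries, against -0.52, -0.45 and 0.25 in DMSO replicates 1, 2 and 3.

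With this trend removed in each library, the CD47 log2 difference was -0.04 (SE 0.0824), so its sign turned. Its ratio of mean FPKM was 1.37 with all libraries and 1.54 without DMSO replicate 3. SIRPA, the receptor of CD47, had 22.7 ± 1.04 FPKM after corilagin and 26.2 ± 3.46 FPKM in DMSO, with overlap (limma log2 difference -0.19, adjusted p = 0.207). Without DMSO replicate 3 SIRPA was called lower (limma log2 difference -0.30, adjusted p = 0.000221), while with the GC trend removed it was at -0.05 (adjusted p = 0.507). QPCTL, the enzyme that modifies the end of CD47 to which SIRPA binds, fell to 11.0, 10.04 and 10.8 FPKM, against 14.8, 14.7 and 12.2 FPKM in DMSO (limma log2 difference -0.35, adjusted p = 0.0424). The QPCTL call was lost without any 1 library other than DMSO replicate 3, with equal sums (adjusted p = 0.0574) and with no filter on low values (adjusted p = 0.0597), and its log2 difference went to -0.18 with the GC trend removed.

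CD33 (ENSG00000105383), an inhibitory Siglec receptor that binds sialic acid and is the target of gemtuzumab, lies on chromosome 19 at 51225064 to 51243860, plus strand. It had 22.9, 23.4 and 21.2 FPKM in the corilagin replicates and 23.6, 25.05 and 22.5 FPKM in the DMSO replicates. The groups overlapped, and the fitted log2 difference of -0.07 (SE 0.0819) became 0.04 with equal sums. Among 13 other Siglec receptors, 6 reached 1 FPKM and 1 of them, SIGLEC12, fell, to 17.9, 18.8 and 18.8 FPKM after corilagin against 31.3, 33.7 and 25.05 FPKM in DMSO (limma log2 difference -0.66, adjusted p = 0.0121). None rose in limma, none had an unadjusted p under 0.05 in that direction, and limma-voom called none higher. In other settings, 2 rose with the GC trend removed, 1 with equal sums and 1 without DMSO replicate 3. Of all 9868 tested genes, limma called 13.5% lower and 11.9% higher. Over all genes, 2201 of 9859 rose with the GC trend removed and 1620 of 9868 with equal sums. Without DMSO replicate 3, 4030 of 9868 rose. The SIGLEC12 call was lost without corilagin replicate 1, 2 or 3 or DMSO replicate 2.

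CD99 (ENSG00000002586), a small adhesion glycoprotein of blasts, is also pseudoautosomal, at 2691133 to 2741309 on chromosome X with a copy on Y. It had 30.8, 30.7 and 29.98 FPKM in the corilagin replicates and 34.0, 33.3 and 26.4 FPKM in the DMSO replicates. All corilagin values lay within the range of the DMSO values, and the DMSO range was set by the lower value of replicate 3. The fitted log2 difference was -0.03 (SE 0.108), and 0.09 both with the GC trend removed and with equal sums. Without DMSO replicate 3 it was -0.14, with a ratio of mean FPKM of 0.906 and no overlap, and without DMSO replicate 1 or 2 it was 0.04 and 0.02.

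The markers of immature cells were barely detected. KIT (ENSG00000157404, chromosome 4, 54657918 to 54740715, plus strand), the receptor of stem cell factor, had 13, 13 and 20 fragments in the corilagin replicates and 8, 6 and 5 in the DMSO replicates, or 0.0694 ± 0.0236 FPKM and 0.0291 ± 0.00601 FPKM. The groups did not overlap, at a level of a few fragments per library. KITLG, which encodes stem cell factor, had 57, 58 and 56 fragments after corilagin and 19, 13 and 37 in DMSO. CD34 (ENSG00000174059, chromosome 1, 207880972 to 207911402, minus strand), a sialomucin, had 2, 5 and 11 fragments in the corilagin replicates and 11, 14 and 5 in the DMSO replicates, with overlap.

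PROM1 (ENSG00000007062, chromosome 4, 15963076 to 16084378), a membrane protein known as CD133, and SPINK2 (ENSG00000128040, chromosome 4, 56809860 to 56821742), a serine protease inhibitor, had 0 fragments in every library. A count of 0 allows up to 3 fragments, which is 0.0186 to 0.0227 FPKM per library for PROM1 and 0.180 to 0.219 FPKM for the shorter SPINK2. Relatives of CD34 were present. PODXL2 (endoglycan), which belongs to the same sialomucin family, fell to 23.6, 23.7 and 22.5 FPKM after corilagin, against 66.3, 67.1 and 51.6 FPKM in DMSO (limma log2 difference -1.36, adjusted p = 0.00189), and the call held whichever library was left out. PODXL had 0.905, 0.949 and 1.015 FPKM after corilagin and 1.24, 1.48 and 1.42 FPKM in DMSO (limma log2 difference -0.28, adjusted p = 0.0329), a fall whose call was lost without any 1 library other than DMSO replicate 3, with the GC trend removed (adjusted p = 0.261) and with equal sums (adjusted p = 0.0720). PODXL averaged below 1 FPKM after corilagin, so it passed the filter of a mean of 1 FPKM only through its level in DMSO.

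Ordered by level, the markers formed an abundant and a scarce group. After corilagin, CD99 (30.5 ± 0.460 FPKM) and IL3RA (29.7 ± 2.16 FPKM) came first with overlapping values, then CD47 (23.5 ± 0.558 FPKM) and CD33 (22.5 ± 1.19 FPKM), which also overlapped. IGLL1 followed, above CD38, KIT and CD34, of which each overlapped its neighbour. In DMSO the order was CD99 (31.3 ± 4.19 FPKM), CD33 (23.7 ± 1.26 FPKM), IL3RA (22.6 ± 2.45 FPKM) and CD47 (17.2 ± 3.36 FPKM), then IGLL1, CD38, CD34 and KIT. There CD33 overlapped IL3RA, IL3RA overlapped CD47 and CD34 overlapped KIT, and the other neighbours were apart.

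Of the 10 genes, 2 (PROM1 and SPINK2) were at 0 in every library. Among the others, the groups overlapped for 3 and did not overlap for 5, with IL3RA, CD47 and KIT higher and IGLL1 and CD38 lower. This compares with 36.9% of the 15921 genes above 0 in any library (20.2% higher and 16.7% lower). Of the 5 genes in the fit, IL3RA and CD47 lay above 0 as deposited and IGLL1, CD33 and CD99 below, given as a description without calls. Over the 9868 tested genes, limma called 25.4% in either direction (11.9% higher and 13.5% lower). Nothing is read from these shares, since the contrast was known when the genes were picked. The median log2 difference of the 5 genes in the fit was -0.03, against 0.03 over all tested genes.

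**Figure D3:**
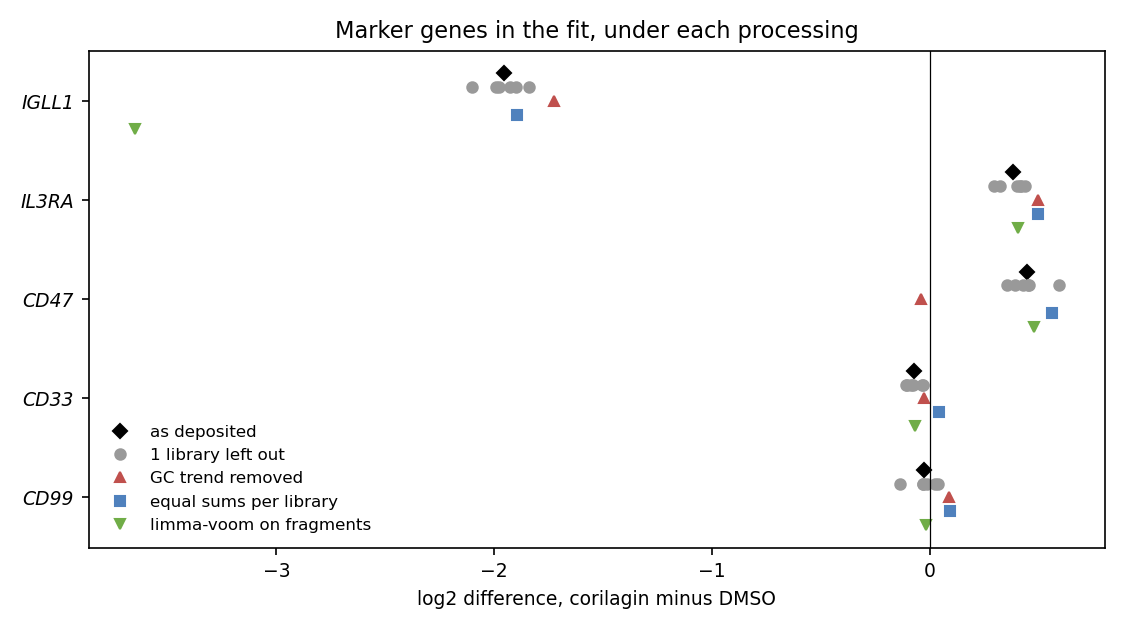
Log2 difference (corilagin minus DMSO) of the 5 marker genes in the fit, as deposited (black), with 1 library left out in turn (grey), with the GC trend removed, with equal sums per library and by limma-voom on recovered fragments. IGLL1 stays below -1.7 in all of them, IL3RA stays above 0, and CD47 moves from 0.45 as deposited to -0.04 with the GC trend removed.

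The genes whose values followed those of IGLL1 most closely over the 6 libraries, by Pearson correlation of log2(FPKM + 1) among the 6570 genes that averaged 5 FPKM or more, were SNRPF, FUOM, FKBP4, GINS1 and C1QBP (r of 0.999, 0.999, 0.999, 0.998 and 0.998). SNRPF, a core protein of spliceosomal particles, had 20.3 ± 0.298 FPKM after corilagin and 32.7 ± 2.22 FPKM in DMSO. Their falls were smaller than that of IGLL1, with ratios of mean FPKM of 0.366 (FKBP4) to 0.742 (GINS1). With 6 libraries in 2 groups this likeness mostly reflects the group difference, and 608 of these genes had an r of at least 0.95.

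Other stem and progenitor genes went in both directions. Of 24, 10 were tested. Of these, 3 rose (CD164, MEIS1 and LMO2), 1 fell (SOX4) and 6 did not pass, with a median log2 difference of 0.08 against 0.03 for all tested genes. Counts in this and the following lists stand beside 11.9% higher and 13.5% lower among all 9868 tested genes. With the GC trend removed, 2201 of 9859 genes were higher and 2347 lower. SOX4, a transcription factor of early progenitors, fell to 14.6, 16.1 and 16.1 FPKM after corilagin, against 23.3, 24.0 and 26.2 FPKM in DMSO (limma log2 difference -0.62, SE 0.0849, adjusted p = 0.00609), and the call held whichever library was left out. CD164, a sialomucin of progenitors, rose 1.59-fold (limma adjusted p = 0.0360), but its log2 difference went to 0.15 (adjusted p = 0.0514) with the GC trend removed, where 3 genes rose and 2 fell. MEIS1 and LMO2, transcription factors of stem cells, rose 1.34-fold and 1.20-fold (limma adjusted p = 0.0335 and 0.0449). The log2 difference of MEIS1 was 0.17 with the GC trend removed, against 0.37 as deposited, and that of LMO2 was 0.40, against 0.26. LMO2 lost its call with median-of-ratios scaling (0.21, adjusted p = 0.0941). The calls of CD164, MEIS1 and LMO2 were each lost without any 1 library other than DMSO replicate 3.

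Among 16 further genes of a published leukaemia stem cell score, which also holds CD34, 15 were in the table and 8 were tested. EMP1, a membrane protein, rose 2.61-fold to 2.78 ± 0.185 FPKM, against 1.07 ± 0.0772 FPKM in DMSO (limma log2 difference 0.87, adjusted p = 0.00190), whichever library was left out. LAPTM4B, a lysosomal membrane protein, rose 1.26-fold (limma adjusted p = 0.0448), a call lost without any 1 library other than DMSO replicate 3 and with median-of-ratios scaling (adjusted p = 0.0673). None of the 8 fell in limma, none had an unadjusted p under 0.05 in that direction and limma-voom called none lower. Without DMSO replicate 3, 3 were higher and 1 was lower, against 4030 higher and 3597 lower of all 9868 tested genes. With the GC trend removed, 4 rose and none fell. The median log2 difference was 0.17.

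Of 25 other surface antigens of leukaemic cells, 18 were tested, 3 rose (IL1RAP, FLT3 and CD44), 2 fell (CXCR4 and SPN) and 13 did not pass. CXCR4, the chemokine receptor that holds progenitors in the marrow, fell to 17.6 ± 0.519 FPKM, against 26.4 ± 1.94 FPKM in DMSO (limma log2 difference -0.56, SE 0.0840, adjusted p = 0.00771), a call lost without corilagin replicate 1 or 2. SPN, the sialomucin of leukocytes known as CD43, fell to 55.2 ± 0.457 FPKM, against 79.3 ± 11.0 FPKM in DMSO (limma adjusted p = 0.0217). IL1RAP, a coreceptor for interleukin 1 that is sought on leukaemic stem cells, rose 1.52-fold (limma adjusted p = 0.0471) but had 16.3 FPKM in DMSO replicate 3, near the corilagin mean of 18.4 FPKM; its log2 difference of 0.60 went to 0.19 with the GC trend removed, and it lost its call with equal sums (adjusted p = 0.0523) and with median-of-ratios scaling (adjusted p = 0.0511). FLT3, the mutated receptor kinase of this line, rose to 311 ± 6.30 FPKM, against 217 ± 39.4 FPKM in DMSO (limma log2 difference 0.53, adjusted p = 0.0273), and its log2 difference was 0.29 with the GC trend removed. CD44, the hyaluronan receptor, rose 1.21-fold (limma adjusted p = 0.0369), a call lost with median-of-ratios scaling (adjusted p = 0.0697). The calls of IL1RAP, FLT3, CD44 and SPN were lost without any 1 library other than DMSO replicate 3. With the GC trend removed, 8 antigens rose and 5 fell, and without DMSO replicate 3, 6 rose and 6 fell. Without any other library no antigen rose and at most 1 fell. Over all tested genes, 2201 of 9859 rose and 2347 fell with the GC trend removed. Without DMSO replicate 3, 4030 of 9868 rose and 3597 fell.

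The 28 ligands, co-receptors and signalling partners of the markers included 22 tested genes, of which 3 rose (CSF2RA, PILRA and PECAM1), 3 fell (PODXL2, QPCTL and PODXL) and 16 did not pass. PECAM1, which CD38 binds on other cells, rose to 20.4 ± 0.832 FPKM, against 15.8 ± 0.568 FPKM in DMSO (limma log2 difference 0.35, adjusted p = 0.0217). PILRA, an inhibitory receptor of myeloid cells, rose 1.45-fold (limma adjusted p = 0.0271). Both calls were lost without any 1 library other than DMSO replicate 3. With the GC trend removed 4 rose and 4 fell, with equal sums 5 rose and 1 fell, and without DMSO replicate 3, 7 rose and 12 fell. Over all tested genes, 2201 of 9859 rose and 2347 fell with the GC trend removed. With equal sums, 1620 of 9868 rose and 1059 fell, and without DMSO replicate 3, 4030 rose and 3597 fell.

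Genes of granulocyte-monocyte progenitors and of mature monocytes were set beside these values. Of 16 genes of granulocyte-monocyte progenitors, 14 were tested, 10 fell, none rose and 4 did not pass, with a median log2 difference of -0.62. Of all 9868 tested genes, limma called 13.5% lower and 11.9% higher. No gene of this list had an unadjusted p under 0.05 in the higher direction, and limma-voom called none higher, while 1 was higher with the GC trend removed or equal sums and 2 were without DMSO replicate 3. Leaving out 1 library gave 4 to 12 lower, with 4 without corilagin replicate 2 or 3, 5 without corilagin replicate 1, 6 without DMSO replicate 2 and 12 without DMSO replicate 3. In that last setting, 3597 of all 9868 tested genes were lower. ELANE, PRTN3 and PRSS57, serine proteases of granules, had ratios of mean FPKM of 0.286, 0.355 and 0.380. MPO, the peroxidase of granules, fell to 0.710, 0.381 and 0.321 FPKM, against 1.57, 1.92 and 1.25 FPKM in DMSO (limma adjusted p = 0.00967, a call lost without corilagin replicate 2 or 3). MPO passed the filter of a mean of 1 FPKM only through its level in DMSO, which limits this call. CPA3 was at 0 in every library. Of this list, 11 genes were lower and 1 was higher with the GC trend removed, with a median of -0.46. Over all 9859 genes in that setting, 2347 were lower and 2201 higher. The list was chosen with the falls of ELANE, PRTN3 and PRSS57 known.

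Mature monocyte genes moved both ways, with 5 of 14 tested higher, 3 lower and 6 not passing, and a median of 0.24. Among all 9868 tested genes, 11.9% were called higher and 13.5% lower. The integrin chains ITGAX and ITGAM rose 1.77-fold and 2.04-fold (limma adjusted p = 0.00320 and 0.00404) and the costimulatory ligand CD86 rose 2.95-fold (limma adjusted p = 0.00197). The chemokine receptor CCR2 fell to 0.488 of its DMSO level (limma adjusted p = 0.00198), lysozyme, LYZ, to 0.625 (limma adjusted p = 0.00502) and S100A9, a calcium-binding protein of phagocytes, to 0.652 (limma adjusted p = 0.00768). The log2 difference of LYZ went to -1.01 with the GC trend removed, against -0.66 as deposited. The S100A9 call was lost without corilagin replicate 1 or 2, and the other calls named here held whichever library was left out. With the GC trend removed, 7 genes of the list were higher and 5 lower, and without DMSO replicate 3, 8 were higher and 5 lower. Without corilagin replicate 1 or 2, 3 were higher and 2 lower, and without corilagin replicate 3 or DMSO replicate 2, 3 were higher and 3 lower.

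**Figure D4:**
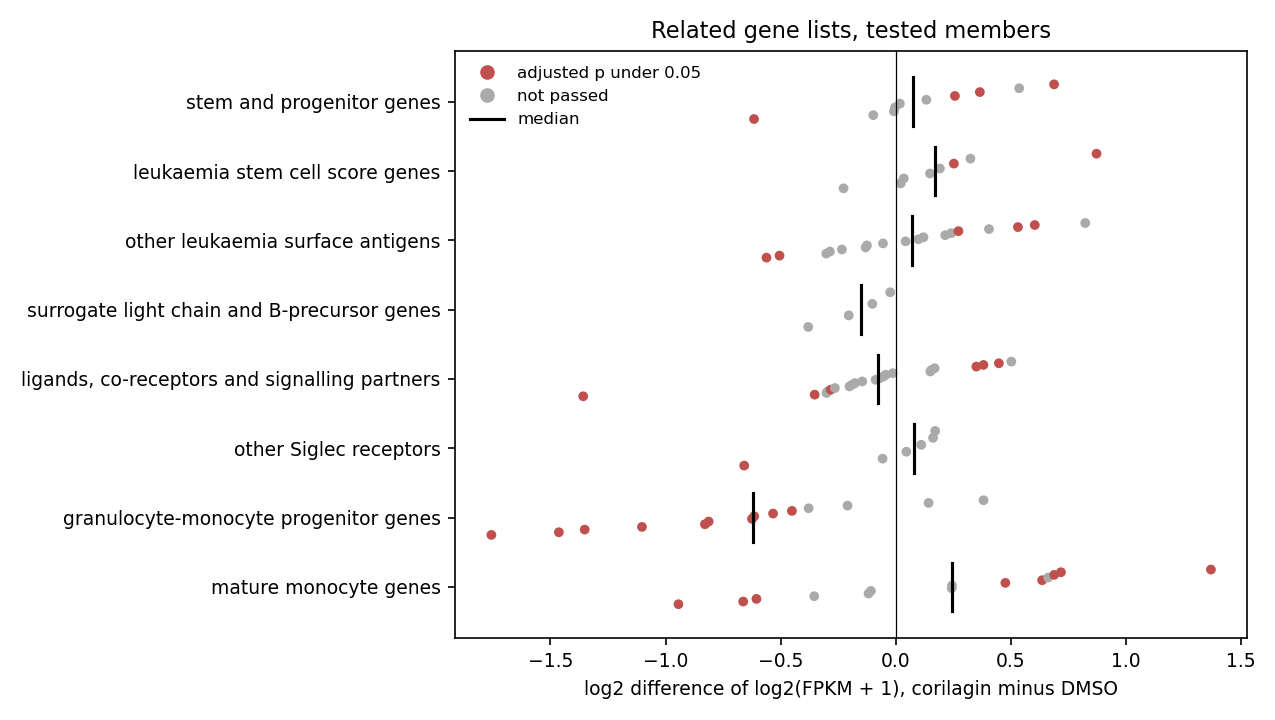
Log2 difference (corilagin minus DMSO, on log2(FPKM + 1)) of the tested genes in 8 lists related to the markers, red where limma's adjusted p was under 0.05 and grey otherwise, with the list's median as a black bar. Granulocyte-monocyte progenitor genes lie mostly below 0 (10 of 14 lower), while the other lists spread to both sides or hold few tested genes. That progenitor list was chosen with the falls of ELANE, PRTN3 and PRSS57 known. Of all 9868 tested genes, 13.5% were lower and 11.9% higher.

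The identity of the line was checked with CD33 of the marker set, with genes of the lists above and with markers of other cell types. CD33, LYZ, PTPRC, MEIS1, HOXA9, FLT3, CSF1R and CD4 averaged between 4.65 and 311 FPKM in every group. Of 7 T and NK cell markers, the T cell genes were near 0 and NKG7 alone reached 1 FPKM, so their sum was 46.0 to 51.4 FPKM after corilagin and 43.9 to 63.4 FPKM in DMSO. Among 10 erythroid and megakaryocyte markers, HBB, HBA1, HBG1, PF4 and PPBP were at 0, and the sum was 2.16 to 3.14 FPKM after corilagin and 2.57 to 2.82 FPKM in DMSO. The 7 stromal and epithelial markers summed to 0.144 to 0.238 FPKM and 0.0895 to 0.162 FPKM, with COL1A2, COL3A1, EPCAM and CDH1 at 0.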

How the data were processed

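The authors deposited 1 table of FPKM for 6 libraries (poly(A) RNA, random priming, read as pairs, per the labels' protocols, which do not state that strand was kept). The submitters' processing notes name fastp 0.22.0, HISAT2 2.1.0, HTSeq 0.9.1, DESeq 1.38.3 and GRCh38, without settings. Symbols matched 20011 identifiers, and coordinates, exon lengths and transcript GC content came from GENCODE 29 (19852 identifiers). Whole fragments were recovered from the FPKM steps for 15921 genes (tolerance 0.0001), so whole numbers follow from the method. The most similar pair of libraries still differed, with a chi-square of 2.51 per gene.

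The test was limma 3.58.1 in R 4.3.3 (trend, 2-sided) on log2(FPKM + 1) over 6 libraries for the 9868 genes that averaged 1 FPKM or more, with Benjamini-Hochberg adjustment and a threshold of 0.05. The GC trend was a natural spline with 5 degrees of freedom per library, which also takes out any true difference that follows GC content. For limma-voom, fragments were scaled by trimmed means of M values. Named genes were the 10 markers, up to 3 rises and 3 falls per list by size, 8 partners and the 5 genes most like IGLL1. Outside this rule, MPO, CPA3, TCF3, IKZF1, EBF1, RAG1, PAX5, BLNK, NKG7 and the genes listed at 0 or as identity markers were named besides. Members and lists were chosen with earlier results of these data known.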

Additional observations from a re-analysis of the deposited data

How the results depend on the processing

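Across all genes, 1171 were higher and 1331 lower after corilagin. Leaving out 1 library gave 131 to 4030 higher and 176 to 3597 lower, the largest counts without DMSO replicate 3, the library that differs in its GC trend from the other DMSO libraries; leaving out a corilagin library gave 131 to 151 higher, and leaving out DMSO replicates 1 and 2 gave 369 and 223. A mean of at least 5 FPKM gave 713 higher, from fewer genes tested. With the GC trend removed 2201 were higher and 2347 lower, and 2154 and 2267 with the replicate block added. The share of higher calls was 46.8% as deposited and 60.5% with equal sums per library, which put the median log2 difference of all genes at 0.14, against 0.03; with median-of-ratios scaling the share was 38.7% (957 higher, 1518 lower) and the median -0.01. With the replicate block alone, 1547 were higher and 1330 lower; same-numbered libraries deviated together with correlations of 0.28, 0.08 and 0.34, so the numbers were not taken as pairs, and DMSO replicate 2 correlated best with corilagin replicate 1. CD47 reversed to -0.0388 with the GC trend removed, with or without the block. IGLL1 lay between -3.65 and -1.73 over all alternatives that gave it a value, and it had none at a mean of at least 5 FPKM. Of the 27 called genes named from the lists, 11 held their call whichever library was left out, 27 held it without DMSO replicate 3, and limma-voom and both other pseudocounts changed none of these calls. Calls were lost for 8 of them with no filter on low values (CD164, MEIS1, LMO2, LAPTM4B, IL1RAP, FLT3, PILRA and QPCTL), 5 with the replicate block (LMO2, LAPTM4B, CD44, QPCTL and PODXL, adjusted p of 0.0514 to 0.0785), 4 with median-of-ratios scaling (LMO2, LAPTM4B, CD44 and IL1RAP), 3 with equal sums (IL1RAP, QPCTL and PODXL) and 2 with the GC trend removed (CD164 and PODXL). Levels of a few fragments limit KIT, CD34 and IGLL5.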
